A study of Mus musculus with 26 samples.

Results

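Mouse liver tumours profiled by bulk RNA sequencing were divided by their level of Glul, which encodes glutamine synthetase, and the 8 libraries with the most Glul (Glul-high) were set against the 8 with the least (Glul-low). Of the 26 libraries of the study, these 16 were the tumours whose titles start with CAB or GAB, without CAB44-L, CAB225-L and GAB235-S, and the classes were chosen by the Glul count relative to the library total (CPM, the usual scaling of counts for depth). The classes were therefore made from the data and are not groups of the experiment. In the 3 libraries left out, Ttn, which encodes the giant sarcomere protein titin, stood at 22239.9 to 31446 CPM, against at most 78.4 CPM in the 16 libraries used.

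Every one of the 16 tumours came from a mouse of mixed C57BL/6J and Swiss Webster strain that carried Ctnnb1(ex3)fl/+, an allele from which Cre removes the third exon so that beta-catenin escapes degradation, and Arid2fl/fl, a floxed pair of alleles of a chromatin remodelling subunit. The Cre driver was either Cyp1a2-CreERT2 or Gls2-CreERT2. Cyp1a2 is a gene of hepatocytes around the central vein and Gls2 one of hepatocytes around the portal vein. Tamoxifen was given at postnatal day 28 and tumours were followed over 6 to 12 months. Glul-high held 5 Cyp1a2-CreERT2 and 3 Gls2-CreERT2 libraries, and Glul-low held 3 Cyp1a2-CreERT2 and 5 Gls2-CreERT2 libraries. WT livers, from 6 C57BL/6J mice given AAV-Cre and kept for up to 12 months, differ from the tumours in strain and in the route of Cre, and are given as background levels only. The 16 titles carry 11 animal numbers, and 3 of these (CAB28, GAB242 and GAB294) have tumours in both classes. Libraries with the same number are treated below as separate tumours of 1 mouse, which the labels do not state. The labels explain neither the letters S, M and L of the titles nor the sex of the animals. No tumour without the Arid2 alleles was among the 16, so nothing here bears on Arid2 itself.

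The Glul level in Glul-high tumours was 2253 CPM at the lowest, 2446 CPM at the median and 5521 CPM at the highest, against 327 CPM, 1391 CPM and 2234 CPM in Glul-low tumours. WT livers lay between 1040 and 1165 CPM, and 5 of the 8 Glul-low tumours stood above every WT liver. The classes meet without a gap: CAB239-M, the last Glul-high tumour, had 2253 CPM and GAB294-S, the first Glul-low tumour, had 2234 CPM. The most extreme tumours were GAB294-M1, with 5521 CPM, and CAB52-L, with 327 CPM. These values chose the classes, and no test was made on them.

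**Figure D1:**
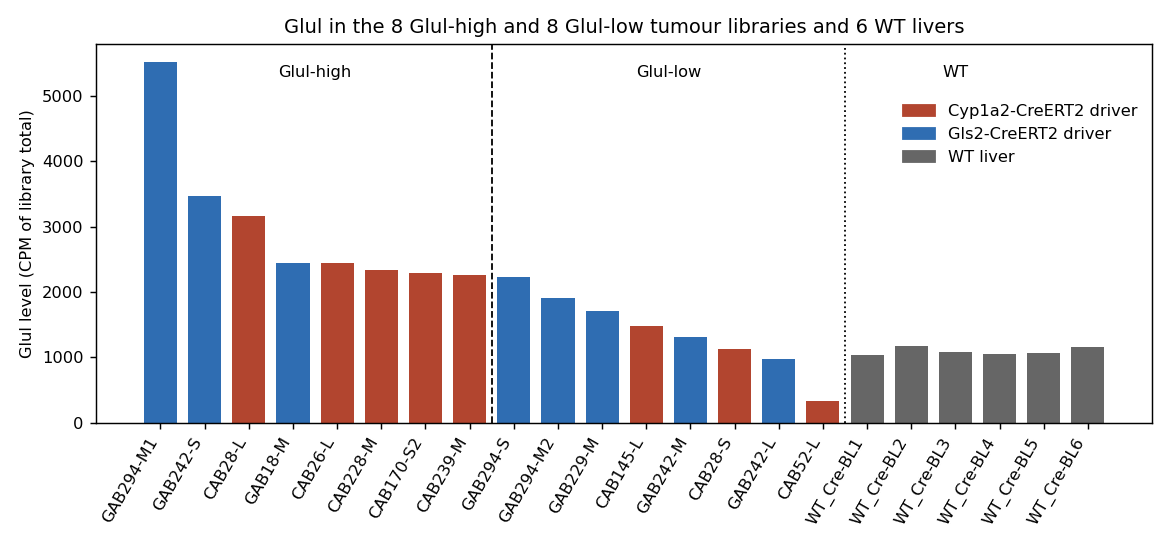
Glul level (bars, CPM of the library total) in each of the 8 Glul-high tumours, the 8 Glul-low tumours and the 6 WT livers, coloured by Cre driver, with tumours in order of Glul. At the border of the classes CAB239-M has 2253 CPM and GAB294-S has 2234 CPM, and both drivers occur on both sides of it.

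Glutamine synthetase joins ammonia to glutamate, and in the healthy liver it is confined to the hepatocytes that border the central vein. There its gene is switched on by Wnt signalling through beta-catenin, together with other pericentral genes such as Cyp2e1, Cyp1a2, Oat and Slc1a2, while periportal hepatocytes run the urea cycle. Liver tumours with activating CTNNB1 mutations often stain for glutamine synthetase, and Axin2, Nkd1, Rnf43 and Notum are feedback genes by which cells report, and damp, the Wnt signal.

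Promoter windows of 3 pericentral genes are shown because they hold the core letters recognised by the TCF and LEF partners of beta-catenin. Each window is the 250 bases before a start site in the RefSeq table on GRCm38.p6, which lists more than 1 start for some genes, written 5′ to 3′ on the strand of the gene, with every match to CTTTGA or its reverse complement TCAAAG in capitals. Cyp2e1 lies at chr7:140763569-140763818 on the plus strand, Slc1a2 at chr2:102706188-102706437 on the plus strand and Lect2 at chr13:56548539-56548788 on the minus strand. The RefSeq starts need not be the GENCODE gene starts: counted along the gene's strand from the GENCODE M21 gene start, the RefSeq start lies at 47779 bases for Slc1a2, well inside the gene, at 80 bases for Cyp2e1 and at -36 bases for Lect2.
Cyp2e1: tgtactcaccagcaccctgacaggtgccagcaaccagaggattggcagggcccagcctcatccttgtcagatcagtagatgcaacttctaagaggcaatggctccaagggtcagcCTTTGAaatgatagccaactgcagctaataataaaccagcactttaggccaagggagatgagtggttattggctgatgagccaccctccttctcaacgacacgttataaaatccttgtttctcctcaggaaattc
Slc1a2: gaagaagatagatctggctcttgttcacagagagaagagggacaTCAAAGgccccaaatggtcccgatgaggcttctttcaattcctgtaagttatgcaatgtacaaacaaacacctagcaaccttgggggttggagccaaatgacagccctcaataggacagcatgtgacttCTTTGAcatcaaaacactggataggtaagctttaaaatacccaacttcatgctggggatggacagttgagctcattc
Lect2: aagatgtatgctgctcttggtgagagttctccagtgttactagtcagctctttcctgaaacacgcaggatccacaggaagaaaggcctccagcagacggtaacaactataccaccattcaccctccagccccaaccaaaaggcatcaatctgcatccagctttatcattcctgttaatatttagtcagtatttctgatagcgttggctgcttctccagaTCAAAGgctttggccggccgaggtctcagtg
The Slc1a2 window held 2 matches and the Cyp2e1 and Lect2 windows 1 each, while the same window of Axin2 held 0. Among all 32851 windows of the RefSeq table, 13.83% held a match on either strand. Of the genes on the pericentral list used below, 8 of the 20 with a window had a match, against 15.84% of 27025 genes. On the Wnt list, which mixes target and feedback genes with some pathway components, 4 of the 10 with a window had one. A match is only a string of letters, and no binding was measured.

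Library totals were 37126545 to 47588109 counts in Glul-high, 36992043 to 42604120 in Glul-low and 13486530 to 16975288 in WT. Mitochondrial transcripts took a median of 3.66% of counts in Glul-high and 3.59% in Glul-low, and the ratio of long to short transcripts overlapped between the classes. Arid2 itself, the floxed gene, was counted at 24.3 to 38.7 CPM in Glul-high and 23.3 to 37.9 CPM in Glul-low, against a mean of 68.9 ± 3.83 CPM in WT (SD, n = 6), with a log2 fold change of 0.06 between the tumour classes. Ctnnb1, counted over the whole gene so that the loss of an exon does not show, had medians of 102 CPM in Glul-high and 87.0 CPM in Glul-low. The highest tumour had 146 CPM of Ctnnb1, against 150 to 182 CPM in WT. Transcripts of the Y chromosome were present in all 16 tumours, with Ddx3y at 32.2 to 149 CPM in Glul-high and 18.3 to 183 CPM in Glul-low, and Xist reached 4.89 CPM in Glul-high and 18.4 CPM in Glul-low. Hepatocyte transcripts were abundant in both classes, with Alb at a median of 9399 CPM in Glul-high and 6657 CPM in Glul-low, against a mean of 60112 CPM in WT.

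No gene passed the test between the classes. Counts of libraries of 1 animal number in 1 class were summed, giving 8 Glul-high and 6 Glul-low units, and edgeR's quasi-likelihood test with Benjamini-Hochberg adjustment called 0 of 16507 genes at an adjusted p under 0.05 (0.0%). The lowest adjusted p in edgeR was 0.097, for Mpeg1. At an unadjusted p under 0.05 there were 1564 genes (9.47%), of which 639 (3.87%) were higher and 925 (5.6%) lower in Glul-high. The log2 fold change, Glul-high over Glul-low, was above 0 for 48.0% of genes, with a median of -0.02. Fold changes below are on this log2 scale and come from edgeR unless another tool or fit is named. Where no adjusted p is printed it was above 0.05. Ratios within animals are instead log2 ratios of the units' CPM with a small constant added, without TMM scaling or a fit. Over all genes tested the median of these ratios was 0.04 in CAB28, -0.09 in GAB242 and -0.13 in GAB294. The spread behind each p-value is that between these units unless stated otherwise, and libraries of the 3 shared animals are related across the classes.

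The number of calls differed between tools and was smaller in DESeq2 and in the continuous fit when CAB52 was left out. No other animal was left out of those fits, so the fall cannot be assigned to CAB52 in particular. DESeq2 on the same units called 124 genes (0.757% of the 16381 with a p-value), 44 higher (0.269%) and 80 lower (0.488%). Without CAB52, the animal of the tumour with the least Glul, DESeq2 called 34 genes (0.204%), 17 higher (0.102%) and 17 lower (0.102%), and 31 of the 34 were among the 124. With log2 Glul as a continuous covariate in place of classes, edgeR called 679 genes (4.23%), with 1.42% higher and 2.81% lower where Glul was higher. The continuous fit took every library as a replicate, without summing by animal number, so related tumours counted as independent. Without CAB52 that fit called 5 genes (0.0308%), 4 higher (0.0246%) and 1 lower (0.00616%). Of those 5, Mir8114 and Teddm2 overlap Glul on chromosome 1: Glul spans 153899944 to 153909723 on the plus strand of mm10, Mir8114 spans 153899926 to 153900036 on the same strand, and Teddm2 spans 153849542 to 153900228 on the minus strand. Their reads cannot be told apart from those of Glul without a stated strand setting, so their calls are not separate from the measure that ordered the tumours. The other called genes were the gene models Gm8883 and 1700080G11Rik, and App, described below.

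Several Wnt feedback genes had higher medians in Glul-high than in Glul-low, with Axin2 and Nkd1 the clearest. Axin2, the scaffold of the beta-catenin destruction complex and a direct Wnt target (chromosome 11, 108920349 to 108950783, plus strand, mm10), was at 122, 216 and 428 CPM (lowest, median and highest library) in Glul-high, against 83.0, 116 and 183 CPM in Glul-low. The classes overlapped at their edges, and every tumour lay above the WT mean of 11.2 ± 2.22 CPM (SD, n = 6). Its log2 fold change was 0.98 (SE 0.22), with an adjusted p of 0.27 in edgeR, 0.0067 in DESeq2 and 0.043 in DESeq2 without CAB52. Nkd1, an inhibitor of Dishevelled that Wnt signalling induces, was at 9.32, 78.3 and 163 CPM in Glul-high, against 5.83, 17.4 and 52.1 CPM in Glul-low. Of the 8 Glul-high tumours, 5 had more Nkd1 than any Glul-low tumour, while CAB228-M had only 9.32 CPM. Nkd1 had a log2 fold change of 1.999 (SE 0.56), and DESeq2 gave an adjusted p of 0.019 with CAB52 and 0.073 without it.

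Rnf43, a ubiquitin ligase that removes Frizzled receptors, was at 49.5, 102 and 149 CPM in Glul-high, against 52.1, 57.5 and 77.7 CPM in Glul-low, with a log2 fold change of 0.69 (SE 0.21). In 6 of the 8 Glul-high tumours Rnf43 exceeded every Glul-low tumour; CAB228-M and GAB242-S did not. Notum, a secreted enzyme that inactivates Wnt ligands, had a log2 fold change of 0.68, Tnfrsf19 one of 0.81, Tbx3, a transcription factor, one of 0.48, and Lgr5, the R-spondin receptor, one of 0.43. The classes overlapped over most of their range for Lgr5, at 8.70 to 27.3 CPM in Glul-high and 5.20 to 22.7 CPM in Glul-low. Ccnd1, which encodes cyclin D1 and is often listed as a Wnt target, had the opposite sign, at a median of 52.5 CPM in Glul-high and 78.6 CPM in Glul-low and a log2 fold change of -0.84, and its sign turned to 0.19 among Gls2-CreERT2 tumours. The Wnt list of 20 genes holds target and feedback genes together with pathway components such as Ctnnb1, Apc, Axin1 and Gsk3b. Of these 20 genes, 19 were tested and 0 passed in edgeR. Of the 19, 12 had a log2 fold change above 0 and 7, Ccnd1 among them, below 0. The list median was 0.32, against -0.02 for all genes tested. The median was 0.12 among Cyp1a2-CreERT2 tumours alone, with 11 of 19 above 0. Among Gls2-CreERT2 tumours alone it was 0.50, with 12 of the 18 fitted above 0. Within animals it was 0.32 in CAB28, 0.11 in GAB242 and 0.16 in GAB294.

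**Figure D2:**
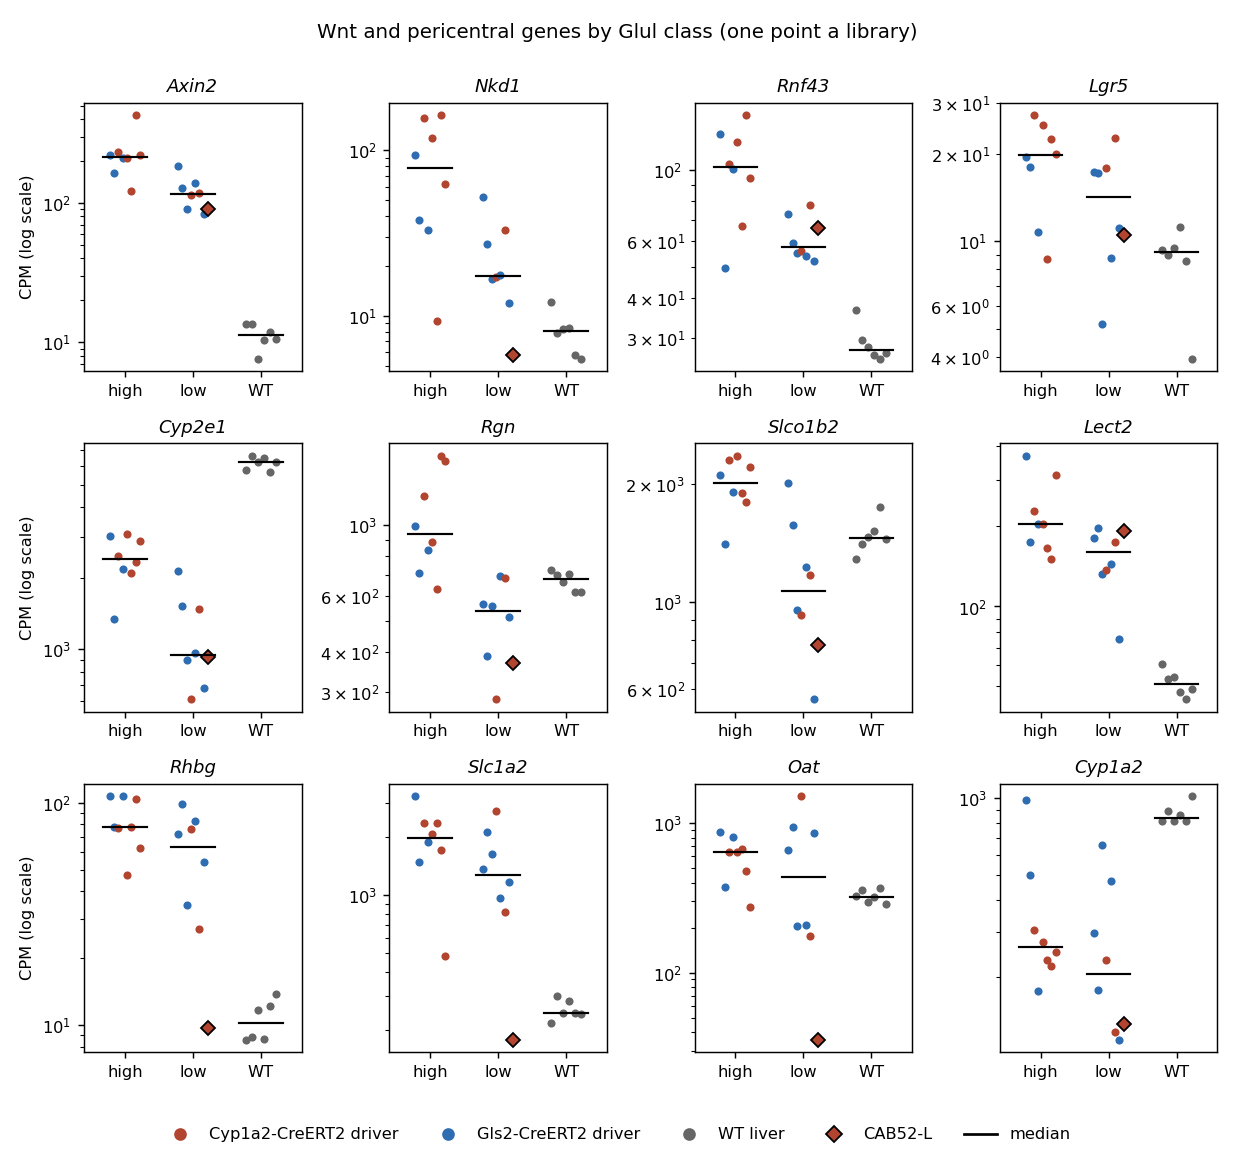
Level (CPM of the library total, log scale) of 4 Wnt feedback and 8 pericentral genes in each Glul-high tumour, Glul-low tumour and WT liver, 1 point a library, coloured by Cre driver, with CAB52-L as a diamond and medians as bars. Axin2, Nkd1, Cyp2e1, Rgn and Slco1b2 have higher medians in Glul-high with overlapping edges, while Oat, Slc1a2 and Rhbg overlap over most of their range and have CAB52-L as their lowest tumour.

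Most genes of pericentral metabolism had higher medians in Glul-high, by amounts that varied widely. Cyp2e1, a cytochrome P450 that oxidises ethanol and paracetamol (chromosome 7, 140763739 to 140774987, plus strand, mm10), was at 1340, 2405 and 3085 CPM in Glul-high, against 610, 940 and 2138 CPM in Glul-low, and at a mean of 6162 ± 396 CPM in WT (SD, n = 6). GAB294-S, with 2138 CPM, was the only Glul-low tumour above the second lowest Glul-high tumour, and GAB242-S, with 1340 CPM, was the lowest Glul-high tumour. Cyp2e1 had a log2 fold change of 1.14 (SE 0.25), with an adjusted p of 0.27 in edgeR and of 0.0039 in DESeq2, or 0.026 without CAB52. Unlike Glul and Axin2, Cyp2e1 stood below WT in every one of the 16 tumours.

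Rgn, which encodes regucalcin, an enzyme of ascorbate synthesis, was at 631, 940 and 1654 CPM in Glul-high, against 284, 537 and 691 CPM in Glul-low, with a log2 fold change of 1.09 (SE 0.24). Slco1b2, a hepatocyte uptake transporter for organic anions and bile acids, was at 1403, 2006 and 2362 CPM in Glul-high, against 565, 1064 and 2005 CPM in Glul-low, with a log2 fold change of 0.88 (SE 0.18). Both overlapped through few tumours. DESeq2 called Rgn (adjusted p = 0.0055, or 0.040 without CAB52) and Slco1b2 (adjusted p = 0.0017, or 0.022 without CAB52), and edgeR did not (adjusted p = 0.27 for each).

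The pericentral genes best known as partners of Glul separated the classes less. Oat, ornithine aminotransferase, was at 275, 641 and 868 CPM in Glul-high, against 35.5, 437 and 1518 CPM in Glul-low, so the Glul-low tumours held both its lowest and its highest values. Its log2 fold change was 0.14 and turned to -0.10 without CAB52, and came to 0.78 without CAB145. Slc1a2, a glutamate transporter, was at 483, 1977 and 3275 CPM in Glul-high, against 177, 1269 and 2742 CPM in Glul-low, with a log2 fold change of 0.54 (SE 0.47) that came to 0.32 without CAB52. Rhbg, an ammonium transporter, was at 47.3, 77.7 and 107 CPM in Glul-high, against 9.75, 63.1 and 98.1 CPM in Glul-low, with a log2 fold change of 0.73. For each of these 3 genes the lowest of the 16 tumours was CAB52-L. Lect2, a secreted hepatocyte protein and beta-catenin target, had medians of 204 CPM in Glul-high and 160 CPM in Glul-low, against a WT mean of 51.6 CPM, and a log2 fold change of 0.52.

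Cyp1a2, whose promoter drives one of the Cre alleles, was at 175, 262 and 984 CPM in Glul-high, against 113, 204 and 654 CPM in Glul-low, with a log2 fold change of 0.45 that came to -0.58 without the 3 animals that have tumours in both classes. Its highest value belonged to GAB294-M1, the tumour with the most Glul. Cyp2c50, a cytochrome P450 of a family with near-identical members, had a log2 fold change of 1.02. Of the 28 pericentral genes, all tested, 0 passed in edgeR and 24 had a log2 fold change above 0. Their median was 0.46, and 0.32 without CAB52, when 22 of 28 were above 0. Medians of 0.44 among Cyp1a2-CreERT2 tumours alone and 0.61 among Gls2-CreERT2 tumours alone were both positive. In bulk tissue, fewer cells of a type and less RNA per cell cannot be told apart, here and in every result that follows.

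Libraries of the same animal number, taken as tumours of 1 mouse, were compared with each other. In animal CAB28 the Glul-high tumour CAB28-L had 232 CPM of Axin2, against 117 CPM in CAB28-S. In GAB242 the Glul-high tumour had 163 CPM, against 139 and 83.0 CPM in the Glul-low pair, and in GAB294 it had 222 CPM, against 183 and 129 CPM. Cyp2e1 was higher in the Glul-high tumour of each animal by similar amounts, at log2 ratios of 0.74 in CAB28, 0.71 in GAB242 and 0.74 in GAB294. Nkd1 had log2 ratios of 2.24 in CAB28, 1.33 in GAB242 and 1.27 in GAB294. Rgn, Slco1b2, Lgr5, Tbx3, Notum, Lect2, Slc1a2, Rhbg and Cyp1a2 were also higher in the Glul-high tumour of all 3 animals. Rnf43 was higher in 2 and Oat in 2. Axin2, Cyp2e1, Rgn and Slco1b2 were also picked for small p in units that include these animals. Their agreement within animals is thus not separate support.

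On the whole lists, 14 of 28 pericentral genes and 8 of 19 tested genes of the Wnt list were higher in the Glul-high tumour of 3 of 3 animals. This compares with 12.0% of all genes tested. In the other direction, 1 of 28 and 4 of 19 were lower in 3 of 3, against 18.5% of all genes. No gene passed when the animal number was a fixed block in edgeR, a fit in which only these 3 animals inform the contrast. In that fit the median log2 fold change was 0.55 for the pericentral list and 0.49 for the Wnt list, against 0.00 for all genes tested.

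**Figure D3:**
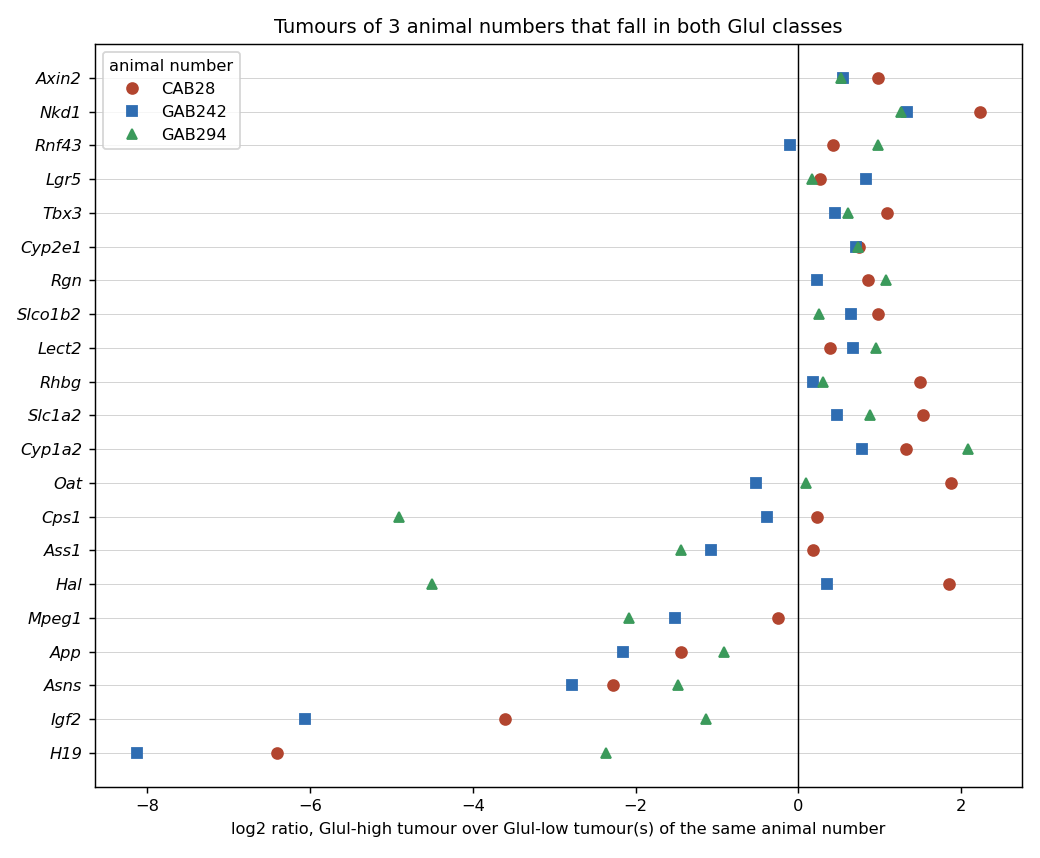
Log2 ratio of the Glul-high tumour over the Glul-low tumour or tumours of the same animal number (x axis) for 21 genes (y axis), 1 marker for each of CAB28, GAB242 and GAB294. Axin2, Nkd1 and Cyp2e1 lie right of 0 in all 3 animals, App, Asns, Igf2 and H19 lie left of 0 in all 3, and Cps1 and Hal range from positive in CAB28 to under -4 in GAB294.

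Periportal and urea cycle genes had list medians near 0 over all tumours, with opposite signs between animals. Between drivers only the periportal list changed sign. The urea cycle median was 0.03 among Cyp1a2-CreERT2 tumours alone and 0.06 among Gls2-CreERT2 tumours alone. Cps1, carbamoyl phosphate synthetase, the entry enzyme of the urea cycle, was at 18.4, 287 and 697 CPM in Glul-high, against 238, 569 and 1080 CPM in Glul-low, far below the WT mean of 4722 CPM in both classes. Its log2 fold change was -0.59 (SE 0.57). Ass1, argininosuccinate synthase, was at medians of 151 CPM in Glul-high and 234 CPM in Glul-low with a log2 fold change of -0.95, and Slc25a13, the mitochondrial aspartate and glutamate carrier, at medians of 163 CPM in Glul-high and 113 CPM in Glul-low with a log2 fold change of 0.62. Of the 8 urea cycle genes 3 were above 0 and 0 passed in edgeR, with a median of -0.10. Of the 20 periportal genes 10 were above 0 and 0 passed, with a median of -0.00, and the median was 0.46 among Cyp1a2-CreERT2 tumours and -0.55 among Gls2-CreERT2 tumours. Within animals the periportal median was 0.60 in CAB28, 0.28 in GAB242 and -2.05 in GAB294, and with the animal number as a fixed block it was -0.30, with 3 of 20 above 0. The difference between drivers was not tested.

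Some periportal genes, though not the list as a whole, were lowest in GAB294-M1. The summed periportal level was 641 CPM at the lowest in Glul-high, against 499 CPM at the lowest in Glul-low. Ftcd, also on the list, was at 126 CPM in GAB294-M1, inside the range of the other tumours. GAB294-M1, the tumour with the most Glul, had the lowest Cps1 of all 16 at 18.4 CPM, while GAB294-S and GAB294-M2 of the same animal had 666 and 482 CPM. It also had the lowest Hal, which encodes the periportal enzyme histidase, at 0.16 CPM, against 24.4 CPM in GAB294-S and 5.64 CPM in GAB294-M2. Gls2, the liver glutaminase whose promoter drives Cre in this animal, was at 0.32 CPM in GAB294-M1, against 42.9 and 9.34 CPM in GAB294-S and GAB294-M2. Other tumours were low too. GAB18-M, also Glul-high and Gls2-CreERT2, had 77.2 CPM of Cps1, 1.03 CPM of Hal and 1.85 CPM of Gls2. In Glul-low, CAB145-L had 0.80 CPM of Hal, and CAB52-L had 0.94 CPM of Hal and 2.30 CPM of Gls2. In the other shared animals the ratios were smaller: the log2 ratio of Cps1 was 0.23 in CAB28 and -0.38 in GAB242, against -4.91 in GAB294. Over all units the log2 fold changes of Gls2 and Hal were 0.39 and 0.80, and both turned negative among Gls2-CreERT2 tumours alone, at -0.99 and -1.02.

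Among genes that handle glutamine and glutamate, other than Glul, the larger differences were negative. Asns, asparagine synthetase, which uses glutamine as its nitrogen donor, was at 1.64, 8.87 and 31.1 CPM in Glul-high, against 3.47, 25.1 and 177 CPM in Glul-low, and at a mean of 1.59 CPM in WT. Asns had a log2 fold change of -2.59 (SE 0.71), the log2 ratio was negative in all 3 shared animals (-2.28, -2.79 and -1.48), and DESeq2 gave an adjusted p of 0.014, or 0.19 without CAB52, when the edgeR log2 fold change was -1.82. Slc3a2, the heavy chain of several amino acid exchangers, had medians of 42.8 CPM in Glul-high and 64.3 CPM in Glul-low and a log2 fold change of -0.80 (SE 0.22). Got1, the cytosolic aspartate aminotransferase, had a log2 fold change of -1.44, or -0.71 without CAB145. Of the 20 genes on the list 8 were above 0 and 0 passed in edgeR, and the median of -0.19 came to -0.06 without CAB52.

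Fetal liver genes were concentrated in a few Glul-low tumours. Igf2, the fetal growth factor, was at 0.292, 2.54 and 26.2 CPM in Glul-high, against 0.967, 111 and 33967 CPM in Glul-low, and at a mean of 0.366 CPM in WT. The 5 tumours with the least Glul were the 5 with the most Igf2: CAB52-L had 33967 CPM, CAB145-L had 4536 CPM, CAB28-S had 132 CPM, GAB242-M had 127 CPM and GAB242-L had 95.2 CPM. The 3 Glul-low tumours nearest to the Glul-high class had 0.967 to 3.23 CPM, within the Glul-high range. H19, the non-coding RNA transcribed beside Igf2 from the same imprinted domain, was highest in the same 5 tumours, at 141 CPM in GAB242-M up to 18903 CPM in CAB52-L, and at most 96.6 CPM in any of the other 11. This ordering was noticed after the values were seen.

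The log2 fold change of Igf2 was -10.21 (SE 2.15), and -7.26 without CAB52. In edgeR the adjusted p was 0.27 with CAB52 and 0.57 without it. DESeq2 called Igf2 (adjusted p = 8.67e-10) and gave it no adjusted p without CAB52. H19 had a log2 fold change of -8.05, and -4.45 without CAB52. Afp, the fetal albumin relative used as a serum marker of liver cancer, and Gpc3, a glypican of fetal liver and liver cancer, rested more fully on 1 tumour. CAB52-L had 1196 CPM of Afp, while the other 15 tumours had at most 24.4 CPM, and 304 CPM of Gpc3, while the others had at most 13.2 CPM. Without CAB52 the log2 fold change came to -0.65 for Afp, against -5.66 with it, and to -1.73 for Gpc3, against -5.32. Of the 16 oncofetal and progenitor genes 13 were tested, 1 was above 0 and 0 passed in edgeR, with a median of -1.03, or -0.56 without CAB52.

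**Figure D4:**
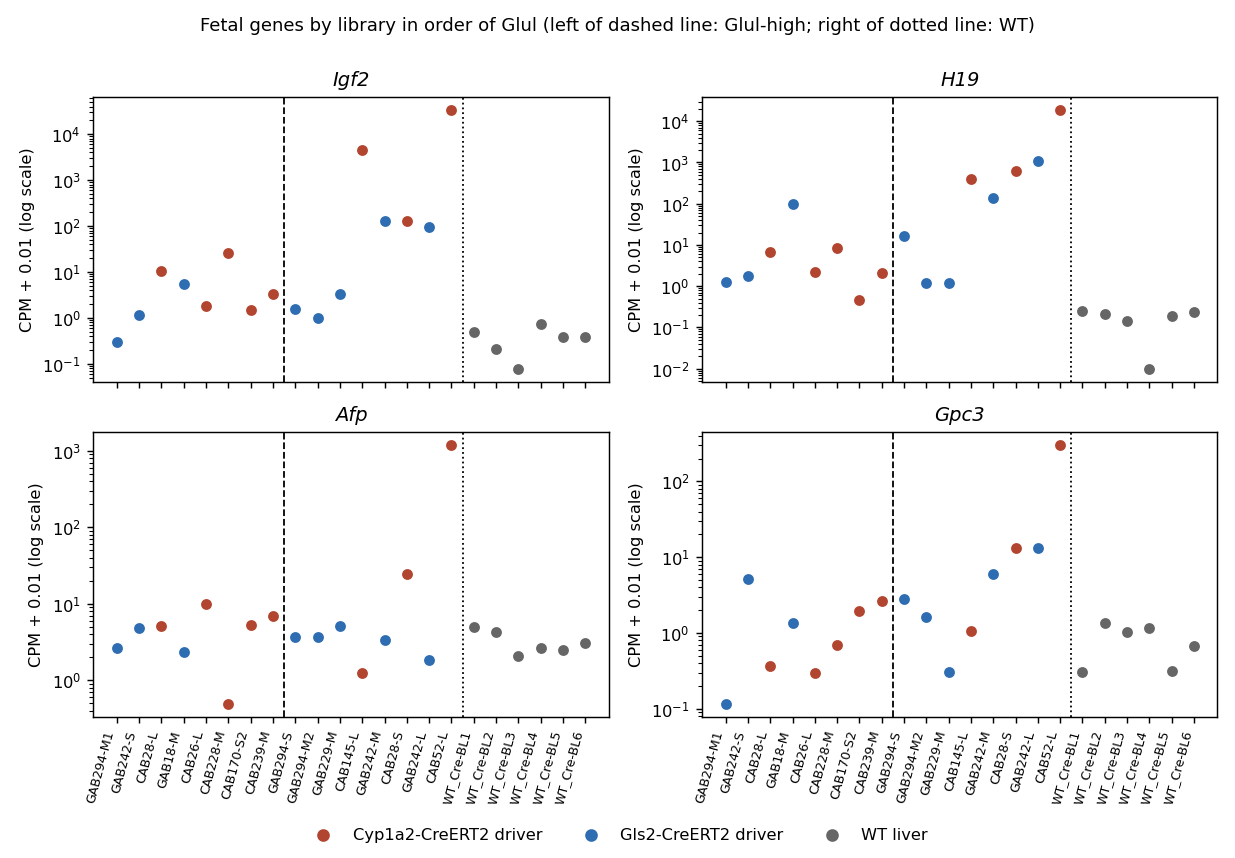
Levels (CPM plus 0.01, log scale) of Igf2, H19, Afp and Gpc3 in each tumour in order of Glul, highest left, and in the 6 WT livers, coloured by Cre driver. Igf2 exceeds 95 CPM only in the 5 tumours with the least Glul, and Afp exceeds 25 CPM only in CAB52-L.

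Genes of fat synthesis and fatty acid oxidation had higher medians in Glul-high over all tumours, while ratios within the 3 shared animals had mixed signs. Fabp1, the liver fatty acid binding protein, was at 477, 2026 and 3208 CPM in Glul-high, against 277, 552 and 1517 CPM in Glul-low, with a log2 fold change of 1.42 (SE 0.40) and a DESeq2 adjusted p of 0.035, or 0.13 without CAB52. Within animals its log2 ratio was -0.04 in CAB28, -0.21 in GAB242 and 0.35 in GAB294. Scd1, the desaturase that makes oleate, and Fasn, fatty acid synthase, had log2 fold changes of 1.21 and 1.04 over all units, and -0.30 and -0.03 with the animal number as a fixed block. Thrsp and Me1, both induced with fat synthesis, had log2 fold changes of 1.15 and 1.18. Of 16 genes of fat and cholesterol synthesis 14 were above 0 with a median of 0.42. In all 3 shared animals 0 of 16 were higher, against 12.0% of all genes tested. In the other direction 3 of 16 were lower in all 3, near the 18.5% of all genes. The median came to -0.05 in the fit with the animal number as a fixed block.

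Of the 16 genes of fatty acid oxidation and ketogenesis 14 were above 0, with a median of 0.41. In all 3 shared animals 2 of 16 were higher, near the 12.0% of all genes tested. Ehhadh, a peroxisomal oxidation enzyme, had a log2 fold change of 1.06 and Pdk4, the kinase that turns off pyruvate dehydrogenase, one of 0.90. Of the 12 genes of bile acid synthesis and transport 10 were above 0, with a median of 0.17. In all 3 shared animals 5 of 12 were higher, against 12.0% of all genes tested. Slc27a5, which conjugates bile acids to coenzyme A, was at medians of 111 CPM in Glul-high and 83.1 CPM in Glul-low, and Slc10a1, the bile acid importer, at medians of 125 CPM in Glul-high and 82.9 CPM in Glul-low. None of these genes passed in edgeR.

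Liver genes that depend on male or female growth hormone pulses had medians of opposite sign under the Cre drivers. Of 10 male-biased genes 9 were above 0, with a median log2 fold change of 0.95, but the median was 1.74 among Cyp1a2-CreERT2 tumours and -0.76 among Gls2-CreERT2 tumours. Of 8 tested female-biased genes 1 was above 0, with a median of -1.05, which came to 0.19 without CAB52. Their median was -2.35 over the 7 genes fitted among Cyp1a2-CreERT2 tumours and 1.36 over the 8 fitted among Gls2-CreERT2 tumours. Fits of 1 driver, here and elsewhere, rest on few animals. Under Cyp1a2-CreERT2 they set 5 Glul-high units against 3 Glul-low units, CAB52 among them, and no such fit was made without CAB52. Under Gls2-CreERT2 they set 3 units against 3, with GAB242 and GAB294 on both sides. Nudt7, a peroxisomal hydrolase on the male-biased list, was at medians of 175 CPM in Glul-high and 73.7 CPM in Glul-low with a log2 fold change of 1.54 (SE 0.48). No member passed in edgeR, and the difference between drivers was not tested.

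Interferon response and antigen presentation genes were on the lower side in Glul-high: 0 of 16 were above 0, with a median log2 fold change of -0.47, and -0.45 without CAB52, though none passed in edgeR. Nlrc5, the activator of MHC class I genes, was at medians of 21.9 CPM in Glul-high and 49.96 CPM in Glul-low, with a log2 fold change of -0.93 (SE 0.33). B2m, the shared light chain of class I molecules, was at 428, 655 and 806 CPM in Glul-high, against 616, 911 and 1060 CPM in Glul-low, with WT at a mean of 1917 CPM and a log2 fold change of -0.43 that turned to 0.06 with the animal number as a fixed block. Isg15, a ubiquitin-like interferon product, had a log2 fold change of -0.74. Within animals the median of the list was 0.01 in CAB28, -0.71 in GAB242 and -0.28 in GAB294.

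Proliferation genes differed little once CAB52 was set aside. Of 22 genes 0 were above 0, with a median log2 fold change of -0.39, but without CAB52 10 of 22 were above 0 and the median was -0.08. Mki67, the proliferation antigen Ki-67, was at 59.2, 172 and 270 CPM in Glul-high, against 40.3, 165 and 564 CPM in Glul-low, and both classes stood above the WT mean of 7.60 CPM. The highest value belonged to CAB52-L, and the log2 fold change of -0.48 turned to 0.20 without it. Slc7a11, the cystine importer induced by oxidative stress, was at 0.0539, 1.79 and 74.7 CPM in Glul-high, against 3.16, 12.7 and 492.7 CPM in Glul-low, with a log2 fold change of -3.65 (SE 1.40), or -6.22 without GAB242. Srxn1, sulfiredoxin, had a log2 fold change of -1.13, while the whole list of 17 Nrf2 target and glutathione synthesis genes had 5 above 0 and a median of -0.14. Ahsg, a secreted hepatocyte glycoprotein, had a log2 fold change of -1.34, or -0.66 without CAB52, and 6 of 16 hepatocyte identity genes were above 0 with a median of -0.08.

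**Figure D5:**
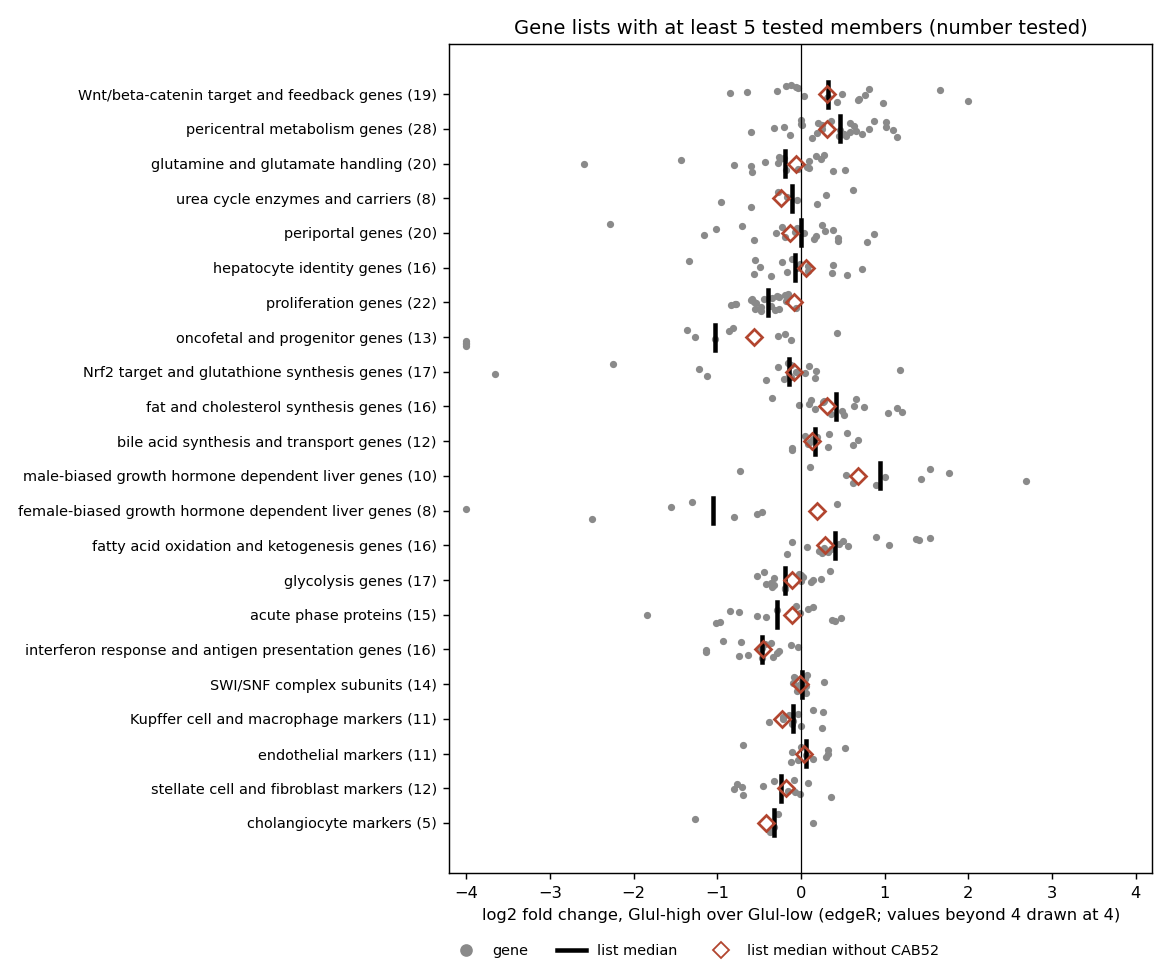
Log2 fold change, Glul-high over Glul-low (x axis, edgeR), of each tested member (grey points) of the gene lists with at least 5 tested members, with the list median (black bar) and the median without CAB52 (diamond), and values beyond 4 drawn at 4. The pericentral median is 0.46, the interferon and antigen presentation median is -0.47, and the proliferation, oncofetal and female-biased medians move toward or past 0 without CAB52.

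The gene with the smallest p was Mpeg1, which encodes perforin-2, a pore-forming protein of macrophages (chromosome 19, 12460779 to 12465283, plus strand, mm10). Mpeg1 was at 34.7, 44.7 and 92.6 CPM in Glul-high, against 86.8, 119 and 233 CPM in Glul-low, and at a mean of 78.6 ± 6.33 CPM in WT (SD, n = 6). CAB28-L, at 92.6 CPM, was the only Glul-high tumour inside the Glul-low range. The log2 fold change was -1.37 (SE 0.20). It was negative within all 3 shared animals, as for 18.5% of all genes. Mpeg1 was picked for its small p in units that include these animals, so that agreement is not separate support. The adjusted p was 0.097 in edgeR and 1.23e-06 in DESeq2, and leaving out animal CAB28 gave an edgeR adjusted p of 0.0043. Over the alternatives in edgeR and limma the log2 fold change kept its sign.

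Other macrophage transcripts had medians of opposite sign under the Cre drivers. Of 11 Kupffer cell and macrophage markers 4 were above 0, with a median of -0.10, and none was at 0 CPM in all tumours. Among Cyp1a2-CreERT2 tumours 10 of 11 were above 0 with a median of 0.66, and among Gls2-CreERT2 tumours 0 of 11 were, with a median of -0.72. Within animals the median was 0.40 in CAB28, 0.01 in GAB242 and -1.53 in GAB294, beside Mpeg1 log2 ratios of -0.25 in CAB28, -1.52 in GAB242 and -2.08 in GAB294, and with the animal number as a fixed block it was -0.38 with 0 of 11 above 0. Their summed level was 67.3 to 252 CPM in Glul-high (median 173), 76.4 to 301 CPM in Glul-low (median 219) and 328 to 412 CPM in WT. The part of macrophage content in the Mpeg1 values was not tested.

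App, the amyloid precursor protein, was at 89.7, 129 and 226 CPM in Glul-high, against 150, 339 and 738 CPM in Glul-low, and at a mean of 80.6 CPM in WT. Only GAB294-S and GAB294-M2 of the Glul-low tumours lay inside the Glul-high range. The log2 fold change of App was -1.62 (SE 0.30), and its adjusted p was 0.27 in edgeR and 0.00030 in DESeq2. Within the shared animals it was -1.44 in CAB28, -2.16 in GAB242 and -0.91 in GAB294. App too was picked for its small p in units that include these animals, so their agreement is not separate support. App was also the 1 gene called on the lower side with log2 Glul as a continuous covariate without CAB52 (edgeR adjusted p = 0.046, with a slope of -1.10 per log2 unit of Glul). In that fit every library counted as a replicate, related tumours included.

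The rule for the smallest p on the lower side named Mpeg1, App, Bglap3 and Tmem41a, the last 2 given below, and 6 further genes. These belong to no common list. Rhoc, a GTPase of actin contraction, was at medians of 10.8 CPM in Glul-high and 26.3 CPM in Glul-low with a log2 fold change of -1.42. Arpc1b, a subunit of the actin-branching Arp2/3 complex, had a log2 fold change of -1.23, Myh9, non-muscle myosin, one of -0.51, Mmp14, a membrane matrix protease, one of -1.10, Unc5b, a netrin receptor, one of -1.57 and Limd2 one of -1.26. Myh9 was at 157 to 221 CPM in Glul-high and 192 to 305 CPM in Glul-low, the smallest fold of these 6. In edgeR each had an adjusted p of 0.27, while DESeq2 gave them adjusted p-values of 0.0011 (Unc5b) to 0.0079 (Mmp14), and 0.065 for Mmp14 without CAB52. All 6 were lower in the Glul-high tumour of each shared animal, as were 18.5% of all genes, but the rule had picked them for units beyond the other class's median.

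Stromal markers had negative medians beside these genes in GAB242 and GAB294. Of 12 stellate cell and fibroblast markers 2 were above 0, with a median of -0.24, and their summed level was 101 to 342 CPM in Glul-high (median 240.3), 179 to 514 CPM in Glul-low (median 243) and 434 to 551 CPM in WT. The median of these markers was -0.02 in CAB28, -1.03 in GAB242 and -1.83 in GAB294. In all 3 animals 5 of 12 were lower, against 18.5% of all genes tested. With the animal number as a fixed block 0 of 12 were above 0 with a median of -0.83. Among Cyp1a2-CreERT2 tumours the median was 0.10, and among Gls2-CreERT2 tumours it was -0.63 with 0 of 12 above 0. Col1a1, the main fibrillar collagen chain, had medians of 10.2 CPM in Glul-high and 17.9 CPM in Glul-low. Of 11 endothelial markers 6 were above 0 with a median of 0.06, although Emcn, an endothelial sialomucin, was at -0.70. The part of stromal content in the values of App and these 6 genes was not tested. Bglap3, of a family with near-identical members and thus uncertain, was at or under 1.15 CPM in 13 of the 16 tumours and at 13.1 CPM in GAB294-M2, 813 CPM in CAB145-L and 1816 CPM in GAB242-L, all Glul-low.

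On the higher side the rule named Slco1b2, Cyp2e1, Rgn and Axin2, described above, and genes of other roles. Ces1e, a carboxylesterase of a family with near-identical members, had a log2 fold change of 1.10, Hibadh, an enzyme of valine breakdown, one of 0.90, Tprkb, a subunit of the tRNA-modifying KEOPS complex, one of 0.73, and Pex5, the receptor that imports proteins into peroxisomes, one of 0.58. Rfx4, a transcription factor best known from brain, was at 4.76, 11.8 and 23.7 CPM in Glul-high, against 1.17, 3.48 and 8.54 CPM in Glul-low, and at a mean of 0.839 CPM in WT, with a log2 fold change of 1.84 (SE 0.44) and a DESeq2 adjusted p of 0.0055. Alas2, the erythroid enzyme of haem synthesis, was at medians of 57.7 CPM in Glul-high and 22.6 CPM in Glul-low with a log2 fold change of 1.23, while the other tested erythroid genes, a pair of beta globins, were below 0.

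Complete separation of the libraries was rare. The lowest Glul-high tumour exceeded the highest Glul-low tumour for 4 genes (0.0242%), and the reverse held for 2 genes (0.0121%). On the higher side these were Dlat, Gstm6 and Nup54, with Mir8114, which overlaps Glul. Gstm6, a glutathione S-transferase of a family with near-identical members, was at 307 to 606 CPM in Glul-high, against 65.5 to 282 CPM in Glul-low and 33.4 to 62.8 CPM in WT. Nup54, a protein of the nuclear pore, was at 38.2 to 44.8 CPM in Glul-high, against 24.99 to 36.9 CPM in Glul-low, with a log2 fold change of 0.35 (SE 0.086) and a DESeq2 adjusted p of 0.0016. Dlat, a subunit of pyruvate dehydrogenase, was at 18.34 CPM in its lowest Glul-high tumour, against 18.28 CPM in its highest Glul-low tumour. On the lower side Tmem41a, a membrane protein, was at 4.56 to 8.32 CPM in Glul-high, against 8.51 to 22.2 CPM in Glul-low, and Mnt, a partner of MAX that opposes MYC, at 12.5 to 18.05 CPM in Glul-high, against 18.7 to 25.1 CPM in Glul-low. None passed in edgeR, and Dlat, Gstm6, Nup54 and Mnt were picked after the values were seen.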

How the data were processed

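Libraries were prepared with a Nugen Ovation kit from RNA of frozen tissue, per the labels' protocols. The values are whole-number read counts per gene symbol, deposited by the authors in 1 table of 35976 genes, with no normalization. The genome build was mm10, per the submitters' processing notes, while the sources used here do not name the aligner, the counter, its strand setting or the annotation. Reads of near-identical, overlapping or antisense genes may have been split, dropped or shared, so values of cytochrome P450, carboxylesterase, glutathione S-transferase, osteocalcin and H2 families are uncertain.

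Members were chosen by Glul CPM of the column total, and Glul took no test. The members, the 27 gene lists (361 symbols, of which 339 were tested) and the rule for named genes were chosen with earlier results of these data known. Animal numbers were read from titles. Libraries with the same number were taken to be tumours of 1 mouse, which the labels do not state, and were paired across the classes on that reading; the consensus correlation of libraries of 1 animal was 0.235. Counts were summed within animal and class (14 units). The test was edgeR 4.0.16 in R 4.3.3 with filterByExpr, TMM scaling, a robust quasi-likelihood fit, Benjamini-Hochberg adjustment over all genes and a threshold of 0.05, and it was tested on simulated data. CPM levels use library totals, while fold changes use TMM-scaled totals and edgeR's default prior count. No fit dropped or imputed a library unless named.

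The rule named the 10 genes on each side with the smallest p, a class mean of 5 CPM or more and every unit beyond the other class's median, up to 3 genes per list with the smallest p, and 18 set genes. It gave 110 genes, of which part is described. Alternatives were other scaling factors (RLE, upper-quartile), filters (none, or 1 CPM in 5 units), all 16 libraries as replicates, 1 library per animal and class, the animal number as a random effect (limma 3.58.1) or fixed block, DESeq2 1.42.0, the Cre driver as covariate or each driver alone, 6 against 6 libraries, ranks on TMM-scaled totals, Glul as a continuous covariate, the ratio of transcripts over 8000 to those up to 1000 exon bases as covariate (88.5% of genes had a length, from GENCODE M21), and each animal left out. The fixed block and 3 fits without CAB52 were chosen after seeing the data. Promoter windows are RefSeq's for GRCm38.p6. The p-values rest on the spread between units. Exceptions are the continuous Glul fits, the fit of all 16 libraries and the random effect fit, which used single libraries. Of these, only the random effect fit took the animal number into account.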

Additional observations from a re-analysis of the deposited data

Results flagged for a closer look

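The level of each described gene was examined in each class, with 144 pairs of gene and class, for 1 animal unit standing apart from the others, and 9 such values were found. A rule of this kind picks about 1 in 20 groups by chance. In animal GAB242 the Glul-high tumour had 1340 CPM of Cyp2e1, while the other Glul-high units had 2114 to 3085 CPM. The same tumour had 477 CPM of Fabp1, below the 1305 to 3208 CPM of the others, and 74.7 CPM of Slc7a11, above the 0.0539 to 3.22 CPM of the others. CAB239, the Glul-high unit next to the Glul-low class, had 483 CPM of Slc1a2, against 1492 to 3275 CPM in the other Glul-high units, and 12.5 CPM of Mnt, against 15.3 to 18.05 CPM. CAB228 stood above the other Glul-high units for Ces1e (40.2 CPM, others 16.1 to 24.4 CPM), Pex5 (201 CPM, others 111 to 146 CPM) and Dlat (51.0 CPM, others 18.3 to 26.8 CPM). Among Glul-low units, the summed tumours of GAB294 had 12.3 CPM of Srxn1, below the 39.5 to 78.5 CPM of the others.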

How the results depend on the processing

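The count of 0 genes held in edgeR or limma under RLE and upper-quartile factors, both filters, all 16 libraries as replicates, 1 library per animal and class, no shared animals, either driver alone or as covariate, 6 against 6, TMM-scaled ranks and the transcript length covariate. Both fits that speak to pairing, the replicate block with the animal number as random effect and as fixed block, called 0 genes and changed no other call. DESeq2 called 124, or 34 without CAB52, and continuous Glul 679, or 5 without CAB52. Leaving out each animal gave 0 to 1 genes, the 1 being Mpeg1 without CAB28. The cause was not tested.

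Over the 72 described genes, 12 turned in sign under some alternative, all without passing the test. Among Gls2-CreERT2 tumours alone Ccnd1 was at 0.19, Gls2 at -0.99, Hal at -1.02, Alb at 0.42, Mki67 at 0.30 and Ctnnb1 at 0.061. Among Cyp1a2-CreERT2 tumours alone Oat was at -0.13 and Arid2 at -0.16. Without the shared animals Oat was at -0.057 and Cyp1a2 at -0.58. With the animal as random effect Gls2 was at -0.67, Hal at -0.00017, Alb at 0.088 and Ctnnb1 at 0.10. As fixed block Gls2 was at -1.11, Hal at -0.35, Scd1 at -0.30, Fasn at -0.031, B2m at 0.064 and Ctnnb1 at 0.21. In DESeq2 without CAB52 Oat was at -0.11, Alb at 0.16, Mki67 at 0.20 and Ctnnb1 at 0.18. With the driver as covariate and without CAB52, Oat was at -0.10, Gls2 at -0.14, Alb at 0.11, Mki67 at 0.11 and Ctnnb1 at 0.11. With continuous Glul without CAB52, Gls2 was at -0.24, B2m at 0.018 and Ctnnb1 at 0.18. Ctnnb1 was at 0.048 with every library as a replicate and at 0.012 with the transcript length covariate.

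Leaving out each animal gave log2 fold changes of -0.10 to 0.78 for Oat, -0.032 to 0.89 for Cyp1a2, -0.52 to 0.16 for Alb, -0.65 to 0.20 for Mki67 and -0.092 to 0.18 for Ctnnb1. It moved Slc7a11 to -6.22 (GAB242), Got1 to -0.71 (CAB145), Hal to 1.43 (GAB294), H19 to -10.23 (GAB18), Igf2 to -11.09 (CAB228) and Gpc3 to -6.15 (GAB242), and Bglap3 to -9.50 (GAB242) at the highest. Depth limits genes counted near 0, such as Slc7a11 at 0.0539 CPM in CAB228-M.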

Other observations

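No member of the gene groups below passed in edgeR. Of 14 SWI/SNF complex subunits, the remodelling complexes that Arid2 belongs to, 8 had a log2 fold change above 0 with a median of 0.01, and their summed level was 3226 to 4823 CPM in Glul-high, 3131 to 5424 CPM in Glul-low and 883 to 940 CPM in WT. Of 17 glycolysis genes 7 were above 0 with a median of -0.19. Of 15 acute phase proteins 5 were above 0 with a median of -0.29, or -0.10 without CAB52, and Lcn2, lipocalin-2, was at medians of 23.0 CPM in Glul-high and 104 CPM in Glul-low with a log2 fold change of -1.84. Of 5 tested cholangiocyte markers 1 was above 0 with a median of -0.33.

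Lymphoid transcripts were scarce in both classes. The 7 T and NK cell markers summed to 0.793 to 4.24 CPM in Glul-high and 0.822 to 4.33 CPM in Glul-low, and the 5 B and plasma cell markers to 0.437 to 2.23 CPM in Glul-high and 0.329 to 2.39 CPM in Glul-low. The 5 neutrophil and monocyte markers summed to a median of 16.0 CPM in Glul-high and 21.9 CPM in Glul-low. Sarcomere genes summed to 7.25 to 339 CPM (median 15.7) in Glul-high and 2.996 to 296 CPM (median 101) in Glul-low, and the median log2 fold change of the 4 tested was -0.90, or 0.23 without CAB52.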
